A study of Mus musculus with 58 samples.

Results

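The genes of axon guidance form a set of ligands and receptors, and 60 of them were found among the 31246 genes listed for a pair of cortical regions, the entorhinal cortex (EC) and, as the other, the primary visual cortex (PVC). Membership went by symbol, as the semaphorins of classes 3 to 7, the plexins, the neuropilins, the ephrins, the Eph receptors, the Slits and the Robos. Of these, 31 are ligands and 29 are receptors. RNA had been sequenced from the EC and the PVC of male C57Bl/6 *APOE* targeted replacement mice aged 14 to 15 months, in which human *APOE* takes the place of mouse *Apoe* under the mouse promoter. All animals of both groups carry the human gene, and no animal with mouse *Apoe* was among them. Each region had 10 *APOE3/3* and 19 *APOE3/4* libraries, with the same 29 mouse numbers in both regions and 58 libraries in total. The paper names 2 colonies as the source of the study's mice and does not say which colony the sequenced mice came from. The only values used here are the authors' mean normalized counts per gene and region, over all 29 libraries of the region with both genotypes pooled. They carry no spread between mice, so that the levels and ratios below are a description with no test, the *APOE3/4* and *APOE3/3* mice are not compared, and the depth of each library is unknown.

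Axon guidance genes encode cues and the cell surface proteins that read them. Semaphorins signal through plexins, with neuropilins as the binding partner for most secreted class 3 members, and ephrins signal through Eph receptor tyrosine kinases at contacts between cells, in both directions. Slits are large secreted proteins read by Robo receptors. In development these systems steer growing axons and sort neurons into layers and maps, and many members stay on in the adult cortex, where they act on synapses, dendritic spines and vessels.

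The 3 members that stood furthest from the median gene between the regions were Robo3 and Sema7a, with lower values in EC, and Nrp2, with higher values in EC, and their promoters are shown because the region values of these genes lead the results below. The sequences are those of RefSeq on GRCm38.p6, from 250 bases before to 50 after the annotated start, written 5′ to 3′ on the gene's strand, and capitals mark each GC box (GGGCGG, on either strand, overlapping matches merged). Nrp2 lies at chr1:62703067-62703366 on the plus strand, Robo3 at chr9:37433126-37433425 on the minus strand and Sema7a at chr9:57939862-57940161 on the plus strand.
Nrp2: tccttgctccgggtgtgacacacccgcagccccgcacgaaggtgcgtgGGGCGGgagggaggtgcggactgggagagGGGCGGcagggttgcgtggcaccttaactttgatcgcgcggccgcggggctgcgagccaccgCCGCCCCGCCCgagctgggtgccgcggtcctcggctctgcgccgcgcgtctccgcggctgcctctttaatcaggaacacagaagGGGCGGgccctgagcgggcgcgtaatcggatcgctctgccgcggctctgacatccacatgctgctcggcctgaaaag
Robo3: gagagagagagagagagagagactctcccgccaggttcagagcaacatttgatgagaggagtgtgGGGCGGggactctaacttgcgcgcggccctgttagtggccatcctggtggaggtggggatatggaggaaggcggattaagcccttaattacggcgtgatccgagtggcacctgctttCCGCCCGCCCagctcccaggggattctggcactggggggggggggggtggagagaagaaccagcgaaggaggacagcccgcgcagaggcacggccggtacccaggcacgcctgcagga
Sema7a: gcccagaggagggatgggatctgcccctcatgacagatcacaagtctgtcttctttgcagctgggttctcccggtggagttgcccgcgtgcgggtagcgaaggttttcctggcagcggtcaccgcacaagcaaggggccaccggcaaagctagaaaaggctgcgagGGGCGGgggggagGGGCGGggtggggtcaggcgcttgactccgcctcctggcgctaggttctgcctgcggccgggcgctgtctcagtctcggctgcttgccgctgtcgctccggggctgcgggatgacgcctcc

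The Nrp2 promoter held 5 GC boxes and 37 CpG dinucleotides at a GC content of 70.7%. The Robo3 promoter held 3 GC boxes and 17 CpG at 63.3% GC, and the Sema7a promoter 2 GC boxes and 23 CpG at 67.3% GC. A promoter entry was matched for 53 of the 60 members, with 69 promoters in all. A GC box occurred in 49 of these 69 promoters (71.0%), against 35.7% of all 32851 promoters in the table, and the median CpG count was 18 against 7. The members' promoters were therefore richer in CpG than most, whichever way the gene differed between the regions. The median count was 30 in the 9 promoters of members higher in EC and 20 in the 11 promoters of members lower in EC. These promoters were matched for 9 of the 12 higher and 10 of the 11 lower members, so the groups are incomplete. The TATA box letters TATAAA were in 2 of the 69 promoters, against 13.6% of all 32851 promoters. AGGTCA, a binding element of nuclear receptors, was in 9 of the 69, against 16.3% of all promoters. TGACG, the core of the cyclic AMP response element, was in 9 of the 69, against 20.8% of all promoters. For each of these motifs, searched on both strands, the share among the members' promoters was below that of all promoters. TGACG was found in 1 of the 9 promoters of members higher in EC and 4 of the 11 of members lower in EC, among them that of Sema7a. These matches describe the letters of the windows only.

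The tables of the regions were normalized separately, and the sum of mean normalized counts was 1.83 times as large in EC (49385488) as in PVC (27058393). The median gene was 1.86 times as high in EC, over the 15642 genes with a mean of at least 10 in both regions. All ratios below are therefore given as log2 EC over PVC after subtraction of this median, so that a gene at 0 has the ratio of the median gene, and "higher" or "lower" is used for a member past 1.5-fold on this scale. Of the markers of the regions, 3 of 3 of entorhinal layer 2 were higher in EC (Reln, Calb1 and Wfs1, log2 ratios 0.67 to 1.74) and 2 of 3 of layer 4 of sensory cortex were lower (Rorb and Rspo1, with Scnn1a at −0.36). These markers differed in the direction of the region labels, though the lists were chosen with earlier results of these data known. Cell type markers also differed between the dissections. Oligodendrocyte markers were lower in EC for 5 of 5 genes (2.58-fold to 3.09-fold) and meningeal markers higher for 5 of 5 (log2 ratios 0.65 to 3.07, Dcn at the top), while 0 of 5 microglial and 0 of 5 endothelial markers passed 1.5-fold. Of 6 markers of GABAergic neurons 2 were lower (Pvalb and Vip), of 4 of all neurons 1 was lower (Nefl), of 5 of astrocytes 1 was higher (Gfap), and of 3 of oligodendrocyte precursors 0 passed. The choroid plexus gave 1 marker higher and 1 lower of 4 measured, with Ttr at 155 in EC and 378 in PVC, and the dentate gyrus 1 higher of 3, C1ql2, at 325 and 50.5. No listed marker was at 0 in either region. In bulk tissue, fewer cells of a type and less RNA per cell cannot be told apart, and the part that these differences have in the values below was not tested.

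To compare levels between genes, the mean normalized count was divided by the length of the gene's exons in kilobases. On this scale the members ran from 7.24 (Efna4) to 1980 (Sema6b) per kb in EC and from 2.73 (Efna4) to 1508 (Sema7a) per kb in PVC. Their levels were mid-range, with 30 of the 60 above the middle of all genes with a mean of at least 10 in EC and 27 in PVC, where the median gene stood at 267 and 167 per kb. Summed counts of the members made up 0.375% of the EC table and 0.343% of the PVC table. The order of the levels was much alike in both regions (Spearman's rho 0.90 over the 60 members, a description across genes, which share their libraries and exon lengths in both tables).

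In EC the order of the levels per kb began with Sema6b (1980), Efnb3 (1645), Slit1 (1608), Plxnd1 (1591), Epha4 (1137), Plxnc1 (1122) and Sema7a (998). In PVC it began with Sema7a (1508), Ephb6 (1121), Epha4 (1114), Sema6b (808), Plxnd1 (620), Efna3 (505) and Efnb3 (498). Epha4, a receptor for ephrins of both classes, and Plxnd1, the receptor of Sema3e, were thus among the top members of both lists. Slit1 was the 3rd in EC and the 10th in PVC, and Plxnc1 the 6th in EC and the 16th in PVC. Efna4, Epha1 and Epha2 were the lowest 3 in both regions. The largest moves in the order were those of Robo3, from the 57th place in EC to the 23rd in PVC, and Nrp2, from the 27th in EC to the 48th in PVC. Without a spread between mice, neighbours in this order cannot be separated. The order also depends on the length used. For Epha5 the merged exons span 10032 bases and the longest transcript 5166, while for Epha4 both are 6328. By its longest transcript, Epha5 would stand above Epha4 in EC, and other ranks, also within families, may change.

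**Figure D1:**
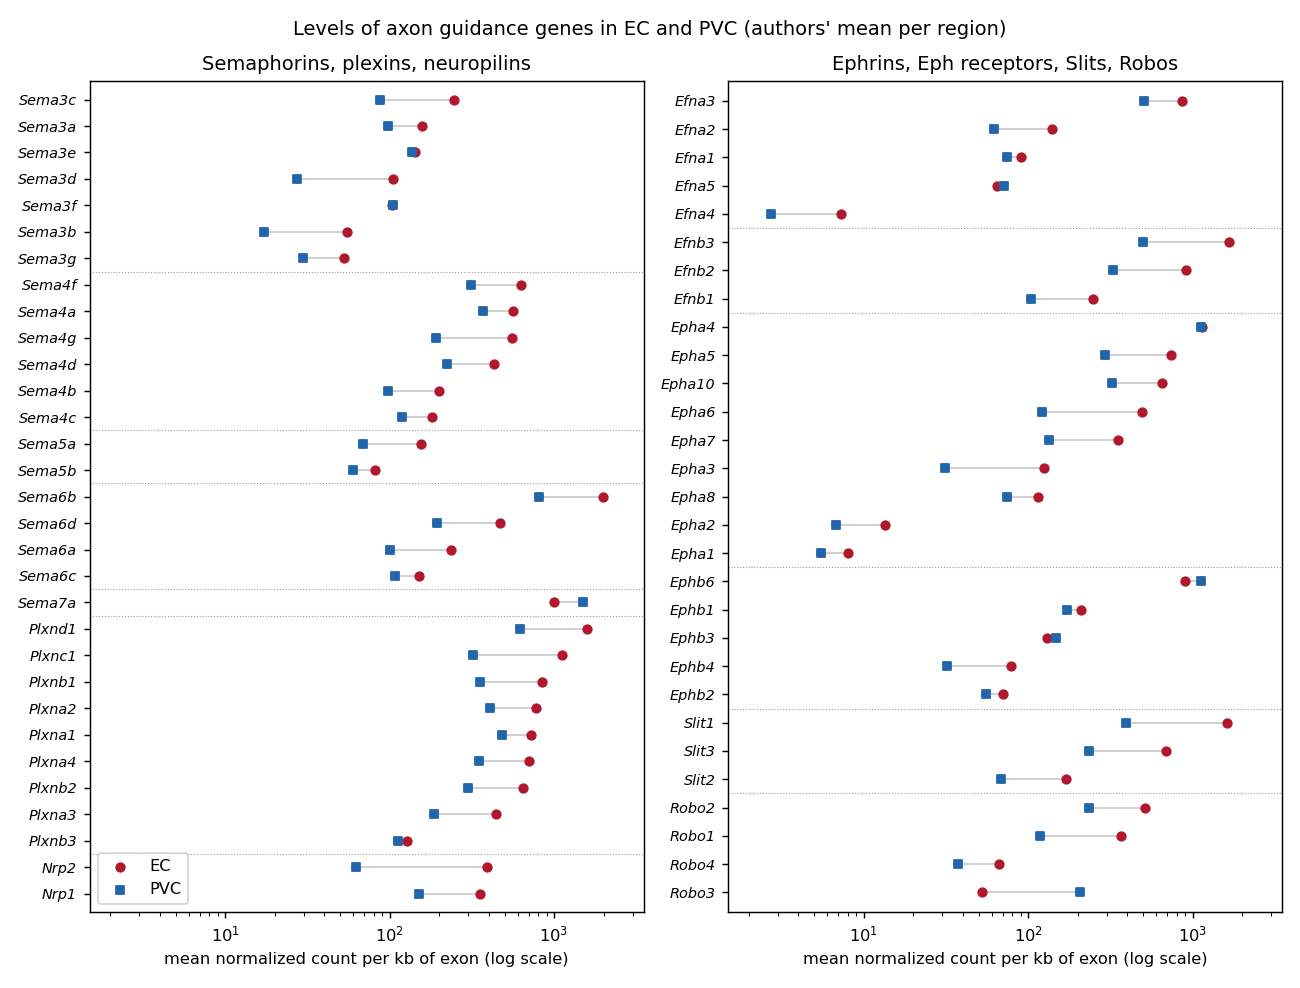
Level of each of the 60 members in EC (red circles) and PVC (blue squares), as the authors' mean normalized count per kb of exon on a log axis, grouped by family and sorted by the EC level. The red circle lies to the right for nearly every gene, as the EC table had the larger values, so the members to look for are those whose order is turned or level, such as Robo3 (52.1 in EC and 205 in PVC), Sema7a and Ephb6.

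Summed per kb, ligands made up 50.4% of the members' total in EC and 48.1% in PVC. The semaphorin system of ligands, plexins and neuropilins took 55.1% in EC and 55.0% in PVC, the ephrin system 32.4% and 36.2%, and the Slits with the Robos 12.5% and 8.85%. The semaphorin system thus held the same share in both regions, the ephrin system a larger share in PVC and the Slits with the Robos a larger share in EC. By family, class 7, which is Sema7a alone, held 3.61% of the total in EC and 10.3% in PVC. EphB receptors held 5.02% in EC and 10.5% in PVC. In the opposite direction, Slits held 8.92% in EC and 4.77% in PVC, ephrin-B ligands 10.1% and 6.38%, and neuropilins 2.70% and 1.46%. Plexins were the largest family in both regions, at 25.3% in EC and 21.5% in PVC.

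**Figure D2:**
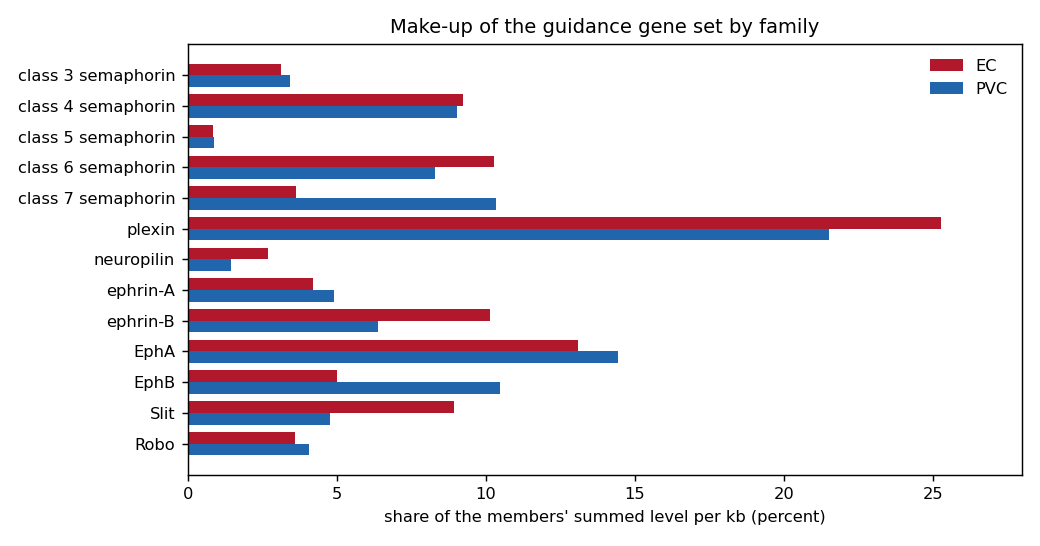
Share of the members' summed level per kb held by each of the 13 families, in percent, in EC (red bars) and PVC (blue bars). The PVC bar is the longer for class 7 semaphorins (10.3% against 3.61%) and EphB receptors (10.5% against 5.02%), and the EC bar for Slits (8.92% against 4.77%) and ephrin-B ligands (10.1% against 6.38%).

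The study set EC, a region vulnerable in Alzheimer's disease, beside PVC, a region that is largely spared. Between EC and PVC, 59 members had a mean of at least 10 in both and gave a ratio, and Efna4 (11.6 in EC and 4.37 in PVC) did not. Of the 59, 12 (20.3%) were higher in EC, where 6.78% of all 15642 genes were, and 11 (18.6%) were lower in EC, where 5.38% of all genes were. At 2-fold, 5 members (8.47%) were higher against a background of 2.66%, and 5 were lower against 2.12%. With a looser limit of 0.32 on the log2 scale, 25 members (42.4%) were higher against 14.4%, and 15 (25.4%) were lower against 11.1%. At these limits the share of members was above the background in both directions, while their median ratio was 0.13, close to the 0 of all genes. Their ratios had an SD of 0.75 across genes against 0.46 for all genes, and the middle 50% of members lay between −0.32 and 0.45, against −0.14 and 0.16. The margin over the background changed with the minimum mean, mainly because the share of all genes changed. With no minimum mean, 11 of 60 members (18.3%) were higher against 15.2% of all genes, and 11 (18.3%) were lower against 10.9%. With a minimum mean of 100, 12 of 56 members (21.4%) were higher against 4.03%, and 10 (17.9%) were lower against 4.32%.

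**Figure D3:**
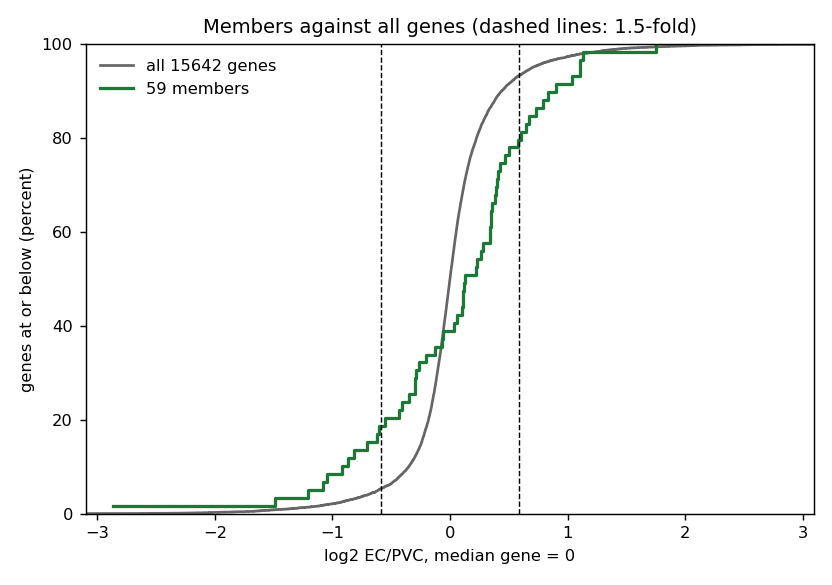
Cumulative share of genes, in percent, at or below each log2 EC over PVC ratio (median gene at 0), for the 59 members (green) and all 15642 genes (grey), with dashed lines at 1.5-fold. The green line is the flatter, with 11 members left of the lower dashed line and 12 right of the upper.

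**Figure D4:**
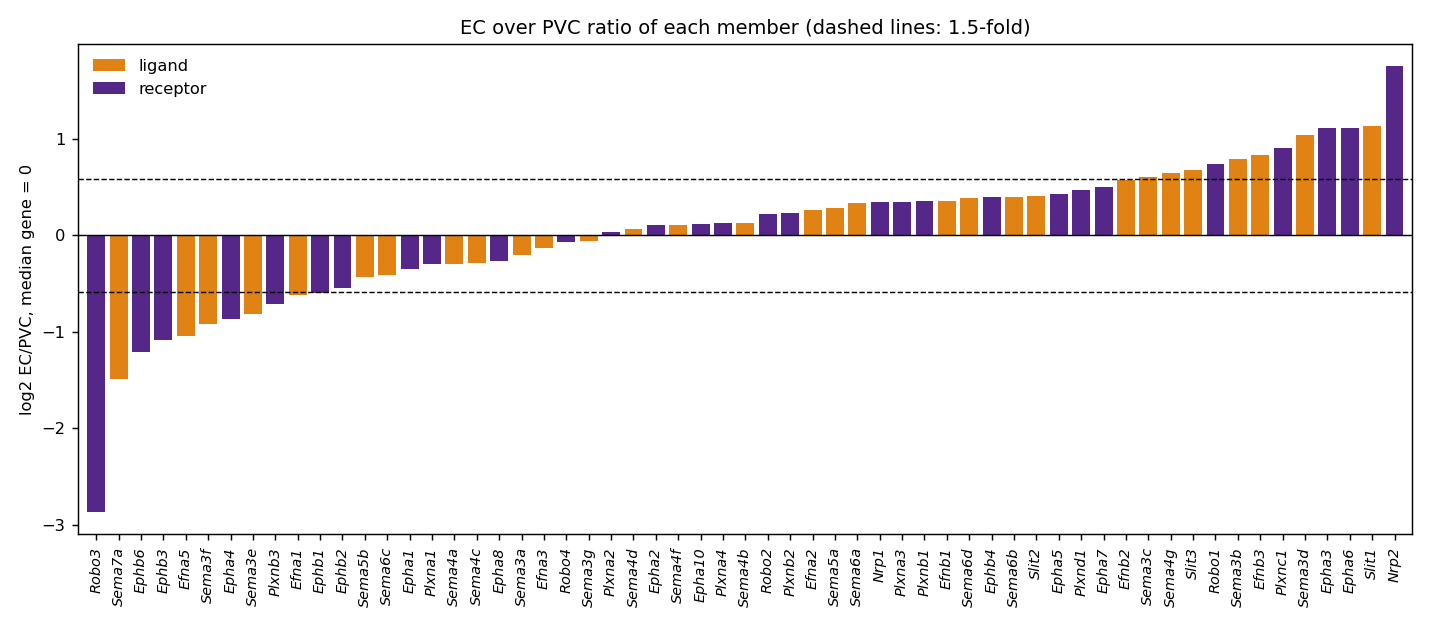
Log2 EC over PVC ratio of each of the 59 members, sorted, with the median gene at 0 and dashed lines at 1.5-fold, for ligands (orange) and receptors (purple). Ligands and receptors occur at both ends, from Robo3 at −2.87 to Nrp2 at 1.75.

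Among the secreted class 3 semaphorins, which repel or attract axons through neuropilin and plexin complexes, 3 of 7 were higher in EC and 2 were lower. Sema3d had a mean of 723 in EC and 189 in PVC, a log2 ratio of 1.04 (2.06-fold higher in EC). Sema3b, the lowest of the class per kb in PVC (17.2), had 236 in EC and 73.2 in PVC, a ratio of 0.79. Sema3c, the highest of the class per kb in EC (248), had 1770 and 627, at 0.60 just past the limit. Going the other way, Sema3f, a repellent that acts through Nrp2, had nearly equal means of 361 in EC and 368 in PVC, which against the median gene put it at −0.92 (1.90-fold lower in EC). Sema3e, which binds Plxnd1 with no need of a neuropilin, had 1087 and 1034, a ratio of −0.82, and was the highest of the class per kb in PVC (136). Sema3a, the classical collapse-inducing semaphorin, and Sema3g, known from vessels, were near the median gene at −0.21 and −0.06, and Sema3g was the lowest of the class per kb in EC (53.1). The class was thus split, with its members at both ends of the range. The meningeal markers, all 5 of them higher in EC, moved in the direction of the 3 higher members, and their part was not tested.

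Most of the membrane-bound semaphorins lay nearer to the median gene. Of the 6 class 4 members, Sema4g alone passed the limit (2701 in EC and 928 in PVC, log2 ratio 0.65), and the other 5 lay between −0.30 (Sema4a) and 0.13 (Sema4b). Per kb of merged exons, Sema4f had the highest level of the class in EC (628) and Sema4a in PVC (371). Sema4c (181 per kb in EC) and Sema4b (98.0 per kb in PVC) had the lowest. Sema4d, a ligand of Plxnb1 that oligodendrocytes express, had 2782 and 1433, a ratio of 0.06. Oligodendrocyte markers were at −1.37 to −1.63, and their part in the Sema4d value was not tested. Class 5 gave Sema5a at 0.28 (156 and 69.0 per kb) and Sema5b at −0.43 (82.1 and 59.6 per kb). None of the 4 class 6 members, which act as ligands and also as receptors, passed the limit. Sema6b was the highest of them at 1980 per kb in EC and 808 in PVC (log2 ratio 0.40), Sema6a, the lowest in PVC at 101 per kb, and Sema6d stood at 0.34 and 0.38, and Sema6c, the lowest of the class in EC at 151 per kb, at −0.41.

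Sema7a, a semaphorin anchored to the membrane by a lipid that binds Plxnc1 and beta1 integrins, was, beside Sema4g, the other membrane-bound semaphorin past the limit, and in the opposite direction. Its mean was 3290 in EC and 4971 in PVC, which is 998 and 1508 per kb. The log2 ratio was −1.49 (2.81-fold lower in EC), the 135th lowest of all 15642 genes. Sema7a was the highest of all 60 members in PVC and the 7th in EC. The gene lies on chromosome 9 from 57787920 to 57810671 on the plus strand (NCBIM37).

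Plexins, the signalling receptors of semaphorins, were mostly higher than the median gene, 7 of 9 with a ratio above 0, but only Plxnc1 was past the limit upwards. Plxnc1, the receptor of Sema7a, had 7900 in EC and 2272 in PVC, a log2 ratio of 0.90 (1.87-fold higher in EC). Plxnd1, the highest of the family per kb in both regions, had 11443 and 4459 at a ratio of 0.47. Plxna2 (11642 and 6115, ratio 0.04) and Plxna4 (8880 and 4394, ratio 0.12) stayed with the median gene, Plxna3, Plxnb1 and Plxnb2 stood at 0.35, 0.35 and 0.23, and Plxna1 at −0.30 (6535 and 4332). Plxnb3, a receptor found in cells of the oligodendrocyte lineage, was the lowest plexin in both regions (128 per kb in EC and 113 in PVC) and the only plexin that was lower in EC, with means of 832 and 732 and a ratio of −0.71. Oligodendrocyte markers were lower in the same direction by 2.58-fold to 3.09-fold, and their part in the Plxnb3 value was not tested.

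The neuropilins, co-receptors that bind class 3 semaphorins and some vascular growth factors, both had a ratio above 0. Nrp2 had a mean of 3732 in EC and 598 in PVC, the greatest excess in EC among the members, with a log2 ratio of 1.75 (3.36-fold higher in EC) that ranked the 98th of all 15642 genes. Per kb it went from 392 in EC, above Nrp1, to 62.9 in PVC, below Nrp1. The gene lies on chromosome 1 from 62749859 to 62865269 on the plus strand (NCBIM37). Nrp1 had 2086 and 888, which is 353 and 150 per kb, a ratio of 0.34. The order of the neuropilin means was therefore turned between the regions.

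Of the ephrin-A ligands, which are held in the membrane by a lipid anchor, 2 were lower in EC. Efna5, a cue for topographic maps, had 259 in EC and 287 in PVC, a log2 ratio of −1.04 (2.06-fold lower in EC). The annotation gives this symbol to 2 entries that share 59.9% of its exon bases, so that the authors' counting may have left reads out there, and its value is uncertain. Efna1 had 164 and 136, a ratio of −0.62. Efna3, the highest of the family at 857 and 505 per kb, stood at −0.13 and Efna2 at 0.26, and Efna4 was the lowest in both regions. No ephrin-A was past the limit upwards. The transmembrane ephrin-B ligands lay above the median gene for 3 of 3. Efnb3, known as a midline barrier for corticospinal axons, had 5236 and 1586, a ratio of 0.83 (1.78-fold higher in EC), and was the highest of its family in both regions. Efnb2 had 4351 and 1573 and stopped just short of the limit at 0.57, and Efnb1, the lowest of the family (246 and 104 per kb), stood at 0.35.

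Among the EphA receptors, which bind mainly ephrin-A ligands, 2 of 9 were higher in EC and 1 was lower. Epha6 had 2575 in EC and 644 in PVC, and Epha3 had 708 and 177, and both came to a log2 ratio of 1.11 (2.15-fold higher in EC). Epha6 shares 2.02% of its exon bases with another annotated gene. Epha4 had 7196 and 7050, a ratio of −0.86 (1.82-fold lower in EC). It was the highest of the family per kb of merged exons in both regions. Its share of the summed EphA level per kb was 31.5% in EC and 53.0% in PVC. Epha5 and Epha7 stood at 0.43 and 0.50, while Epha10, a receptor without kinase activity, Epha2, Epha8 and Epha1 lay between −0.34 and 0.11. Epha1 was the lowest at 7.97 and 5.45 per kb.

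The EphB receptors, which bind ephrin-B ligands, tended the other way, with 4 of 5 below the median gene and 3 lower in EC. Ephb6, whose kinase domain is inactive, had 3396 in EC and 4229 in PVC, a log2 ratio of −1.21 (2.31-fold lower in EC), and made up 64.9% of the summed EphB level per kb in EC and 73.4% in PVC. Ephb3 had 813 and 926, a ratio of −1.08 (2.11-fold lower in EC). Ephb1 had 1358 and 1110 and was barely past the limit at −0.60, and it shares 2.34% of its exon bases with another annotated gene. Ephb2, the lowest of the family in EC (70.5 per kb), was within the limit at −0.55, and Ephb4, known from veins and the lowest in PVC (32.1 per kb), stood at 0.39. Ephrin-B ligands and EphB receptors thus had medians on opposite sides of 0, at 0.57 over 3 genes and −0.60 over 5 genes.

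All 3 Slits were above the median gene, and 2 of them were higher in EC. Slit1, made mainly by neurons, had 9521 in EC and 2334 in PVC, a log2 ratio of 1.14 (2.20-fold higher in EC), and was the highest of its family at 1608 and 394 per kb. Slit3 had 4165 and 1407, a ratio of 0.67, and Slit2 2553 and 1035, a ratio of 0.41, with the lowest level of the 3 at 169 and 68.6 per kb. The Slit level was thus led by Slit1 in both regions.

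Robo receptors had the widest range of ratios of any family, from −2.87 to 0.73. Robo3, a divergent Robo that governs midline crossing of commissural axons, had 353 in EC and 1387 in PVC, the only member whose PVC mean was several times its EC mean. Its log2 ratio of −2.87 (7.30-fold lower in EC) was the 9th lowest of all 15642 genes. It lies on chromosome 9 from 37223254 to 37240760 on the minus strand (NCBIM37, ENSMUSG00000032128.7) and shares no exon bases with another annotated gene. Robo1 went the other way with 3488 and 1130, a ratio of 0.73 (1.66-fold higher in EC). Robo2, the highest Robo at 508 and 234 per kb, had 8389 and 3868, a ratio of 0.22. Robo4, the Robo of endothelium, was the lowest in PVC at 37.3 per kb and had 272 and 153, a ratio of −0.07, beside endothelial markers at −0.01 to 0.29.

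Of 13 ligand and receptor pairs known to bind or act together, which were picked with earlier results of these data known, 7 had ligand and receptor on the same side of the median gene and 6 on opposite sides. These counts depend on which partners were paired, as most families hold several members. Among the class 3 semaphorins 3 were higher in EC, like Nrp2, and 2 were lower. Among the EphA receptors 2 were higher, unlike Efna5, and 1 was lower. In 2 pairs both partners were past 1.5-fold in opposite directions. For Sema3f and Nrp2, the ligand over receptor ratio per kb was 0.264 in EC and 1.68 in PVC, 6.37-fold higher in PVC. For Sema7a and Plxnc1, it was 0.890 in EC and 4.67 in PVC, 5.25-fold higher in PVC. In both pairs the receptor exceeded the ligand in EC and the ligand exceeded the receptor in PVC. In another 2 pairs both partners were past the limit in the same direction, Slit1 with Robo1 upwards (ratio per kb 4.40 in EC and 3.33 in PVC) and Efna5 with Epha4 downwards (0.0564 and 0.0639, with the value of Efna5 uncertain as above). Sema3e over Plxnd1 was 0.0902 in EC and 0.220 in PVC, and Sema3a over Nrp1 0.444 and 0.649. Efnb3 over Ephb2 was the largest ratio in EC at 23.4, against 8.97 in PVC, and Efnb2 over Ephb4 came to 11.6 and 10.2. The ratio was 0.647 and 0.403 for Sema6d over Plxna1, 0.307 and 0.249 for Sema6a over Plxna2, and 0.333 and 0.293 for Slit2 over Robo2. It was 0.510 and 0.623 for Sema4d over Plxnb1 and 0.351 and 0.368 for Sema5a over Plxna3. Over the 8 semaphorin pairs, the ligand over receptor ratio was larger in PVC for 6 and larger in EC for 2, those of Sema6a and Sema6d. Of the 6, the pairs of Sema5a and Sema4d differed little, at 1.05-fold and 1.22-fold. Over the other 5 pairs the ratio was larger in EC for 4. As the means are of whole tissue, they do not say which cells hold either partner.

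**Figure D5:**
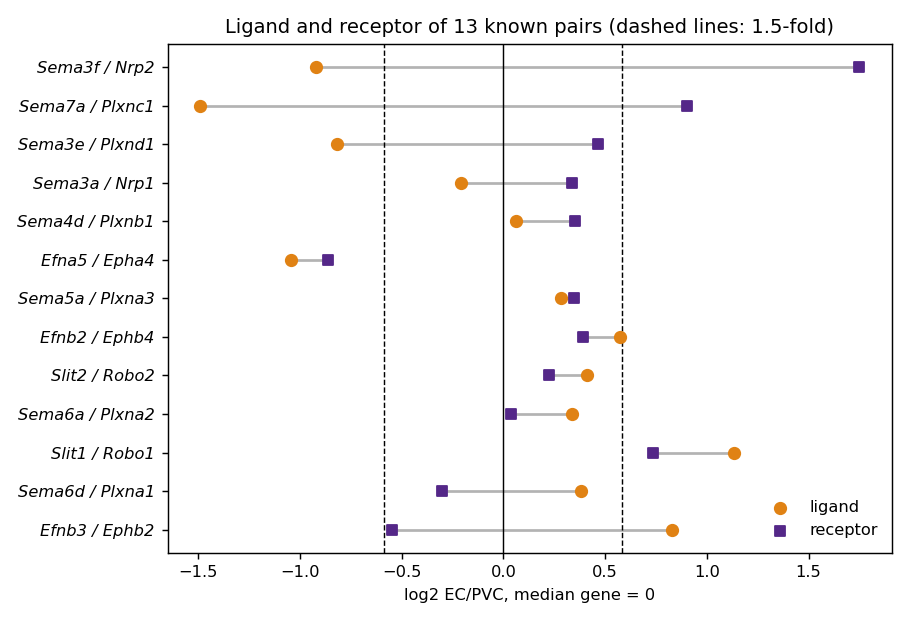
Log2 EC over PVC ratio (median gene at 0) of the ligand (orange circle) and the receptor (purple square) of each of 13 pairs, with dashed lines at 1.5-fold. In the top 2 rows, Sema3f with Nrp2 and Sema7a with Plxnc1, the ligand lies left of the lower line and the receptor right of the upper line.

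Of 10 pairs of members that follow each other on a chromosome at under 1000 kb (NCBIM37) and both gave a ratio, 7 had both ratios on the same side of 0 and 3 on opposite sides. Efna3 and Efna4, 10.4 kb apart on chromosome 3, were left out, as Efna4 gave no ratio. Some genes stand in more than 1 pair, and the share among neighbouring genes in general was not computed. Robo4 and Robo3 lie 1645 bases apart on chromosome 9 on opposite strands, with log2 ratios of −0.07 and −2.87. Sema3b and Sema3f, 72.3 kb apart on chromosome 9 on the same strand, were at 0.79 and −0.92, past the limit in opposite directions. On chromosome 5, Sema3d, Sema3a and Sema3e follow each other at gaps of 537 and 423 kb, with 1.04, −0.21 and −0.82. Robo1 and Robo2, 846 kb apart on chromosome 16, were both above 0 at 0.73 and 0.22, and Plxnb3 and Plxna3, 557 kb apart on the X chromosome, lay on opposite sides at −0.71 and 0.35. The other 4 pairs were below 0 in both genes, with −0.30 and −0.62 for Sema4a and Efna1, −0.62 and −0.13 for Efna1 and Efna3, −0.55 and −0.26 for Ephb2 and Epha8, and −1.21 and −0.34 for Ephb6 and Epha1. The library kit does not keep strand, so that reads of overlapping or antisense genes cannot be told apart, and 12 members share some exon bases with another annotated gene, 9 of them within the limit or without a ratio.

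The other genes of the guidance pathway lay nearer to the background. Of 57 listed genes for netrins and other cues, their receptors, adhesion partners and cytoplasmic effectors, 6 were higher in EC, where 6.78% of all genes were, and 5 were lower, where 5.38% were, with a median of 0.06. Ntng1, a membrane-anchored netrin, had 4529 in EC and 656 in PVC (log2 ratio 1.89, 3.72-fold higher in EC), and Dcc, the netrin-1 receptor, had 1326 and 293 (1.28, 2.43-fold higher in EC). Bmp7 (0.90), Unc5c, a repulsive netrin receptor (0.69), Tiam1, a Rac activator (0.70), and Srgap1, which acts downstream of Robo (0.64), were the other higher genes. The lower genes were Rnd1, which binds plexins (−0.95), Ngef, the ephexin downstream of EphA receptors (−0.89), Cntn2 (−0.74), Ntn4 (−0.69) and Kalrn (−0.59). By role, 2 of 9 cues were higher and 1 lower (median 0.29), and 2 of 8 receptors higher and 0 lower (median 0.32). Of 10 adhesion partners 0 were higher and 1 lower (median 0.14), and of 30 cytoplasmic effectors 2 were higher and 3 lower (median −0.05). The cues and the receptors, though few, were thus higher in EC at a share no smaller than the 20.3% of the members. For Ngef the mean was 9489 in EC and 9499 in PVC, next to 7196 and 7050 for Epha4. Both were thus lower in EC against the median gene, but Ngef is 1 of 30 cytoplasmic effectors, of which 13 lay above 0 and 17 below.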

How the data were processed

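RNA from EC and PVC was read as poly(A)+ single end libraries made with the TruSeq v2 kit. Per the methods and the submitters' processing notes, the authors aligned reads to mm9 with TopHat2 2.0.6 and Bowtie2 2.0.2.0, counted them with HTSeq over a protein-coding NCBIM37 annotation and compared the genotypes per region with DESeq2 1.10.1. The deposited table of each region holds, per gene, a signal made by the authors, the mean of counts divided by size factors over all libraries of the region. Its other columns hold the authors' own *APOE3/4* against *APOE3/3* comparison (fold changes and p-values) and were not used.

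From the means, log2 EC over PVC was taken for genes with a mean of at least 10 in both tables and centred on their median, and 1.5-fold was the limit. Levels between genes were compared per kb of merged exons of an NCBIM37 annotation, with a length for 25368 of the 31246 genes. It is not the authors' modified annotation and is not limited to protein-coding genes, so lengths may differ from theirs. Genes said to share exon bases with a member may not have been counted by the authors. Members were named where past the limit, highest or lowest of a family per kb, or in a listed pair, and the others were counted or given by ranges. Of the listed pathway genes and markers, Draxin and Rbfox3 were not matched, and the markers of excitatory neurons are not reported here. The gene families, lists and pairs were chosen with earlier results of these data known, and membership in a family went by symbol, not by a value. Scripts ran in Python 3.11.15 (matplotlib 3.10.9, scipy 1.17.1, pandas 2.3.3, numpy 2.4.6) and were tested on simulated data. Other scalings, minimums and limits were tried. The means give no counting error per library, so no interval or test was computed.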

Additional observations from a re-analysis of the deposited data

How the results depend on the processing

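Of the members past 1.5-fold, 10 of the 12 higher and 10 of the 11 lower in EC stayed past it under every other scaling, pseudocount and minimum tried. The exceptions were Sema3b, which had no ratio with a minimum mean of 100, Sema3c, at 0.58 with no minimum mean, and Ephb1, at −0.58 with the tables scaled to the same sum, centred within 20 bins of mean level or with a minimum mean of 100, and Efnb2 came past the limit under the same 3 settings (0.60, 0.60 and 0.59). No ratio past the limit changed sign. With a 2-fold limit 5 members were higher and 5 lower, and with a limit of 0.32 on the log2 scale 25 were higher. Without division by exon length, ligands made up 38.1% of the members' sum in EC and 36.2% in PVC. Without Sema7a, the member with the highest level in PVC, the ligand share there was 42.1%. Without the members that share exon bases with another gene, an alternative chosen after seeing the data, 11 of 48 were higher and 9 lower. No paired analysis was possible because the means used pool all mice of a region, and for the same reason no replicate could be left out. The depth behind the means is unknown, and low members such as Efna4, Epha1 and Epha2 are limited most by it.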
